A study of Mus musculus with 46 samples.

Results

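Thbd, Pth1r, Plat, Tfpi, Srgn and Fst are associated with parietal endoderm, and they were taken by gene symbol alone, with no filter on their level. All 6 symbols were present in each of the 7 count tables, which hold 21812 genes each. The tables cover 46 mouse libraries of total RNA in 19 groups, all derived from extended pluripotent stem cells (EPSC), and ask how these cells enter the primitive endoderm lineage and how stable their transcripts are. The sorted fractions of cultures kept in primitive endoderm (PrE) inducing medium were PrE-E (CD140+, 2 libraries) and EPI-E (CD140-, 2 libraries). Embryoids assembled from EPSC and GBL-1 cells were digested with pronase E on day 5 into VE (visceral endoderm, 6 libraries) and EPI (epiblast, 6 libraries). Unsorted PrE-induced cultures (PrEdiff) and EPSC cultures (EPS) received the transcription inhibitor actinomycin D for 0, 1, 2 or 3 h, with 2 libraries per state and time. Further PrE-induced cultures compared a conditional knockout of Virma (cKO) with WT, a Mettl3 cKO with WT, and siRNA against Igf2bp3 (siIgf2bp3) with a control siRNA (siNC), with 2 libraries per group. Untreated EPSC gave 2 libraries. The Cre driver, the day of knockout, the number of clones and the siRNA sequences are not given in the sources used here, nor whether replicates came from separate cultures, so p-values measure the spread between these libraries, which may be technical. Chi-square per degree of freedom between replicates, which counting error alone would put near 1, was 1.19 to 1.3 in the actinomycin D table. It was 1.58 to 20 in the other tables, so p-values are not alike in what they measure.

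Parietal endoderm migrates from the primitive endoderm along the trophoblast and lays down Reichert's membrane, a thick basement membrane of laminin and type IV collagen. Visceral endoderm stays around the epiblast as an absorptive epithelium that takes up protein through cubilin and megalin and secretes serum carriers. Parathyroid hormone-related peptide, acting on the receptor encoded by Pth1r, promotes parietal differentiation of mouse embryonal carcinoma cells, and Thbd and Plat are classical parietal markers in such cells. The 6 genes fall into 4 roles. Thbd encodes thrombomodulin, a thrombin-binding cofactor for the activation of protein C, and Tfpi encodes an inhibitor of the tissue factor pathway of coagulation. Plat encodes tissue plasminogen activator, a protease that generates plasmin. Pth1r is a G protein-coupled receptor, Srgn encodes the core of the proteoglycan serglycin, and Fst encodes follistatin, a secreted protein that binds and blocks activin.

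Promoter windows were matched for 3 of the 6 genes, Tfpi, Srgn and Pth1r, and these are shown. The RefSeq windows of 250 bases upstream of the annotated starts on assembly GRCm38.p6 are all on the minus strand and number 7. The windows were searched on both strands for the core read by GATA factors, which is GATAA, and for the TATA box, which was taken as TATAAA. They were also searched for the cyclic AMP response element, spelled TGACGTCA, and for an element of the transcription factor AP-1, spelled TGANTCA with N for any base. The 4 windows with a match are printed 5′ to 3′ on the gene's strand, with the match in capitals.
Srgn window 1: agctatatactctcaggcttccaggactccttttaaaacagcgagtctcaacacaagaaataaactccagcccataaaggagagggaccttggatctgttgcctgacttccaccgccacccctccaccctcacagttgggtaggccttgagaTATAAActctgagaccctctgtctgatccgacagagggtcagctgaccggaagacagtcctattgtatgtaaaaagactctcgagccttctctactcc
Tfpi window 1: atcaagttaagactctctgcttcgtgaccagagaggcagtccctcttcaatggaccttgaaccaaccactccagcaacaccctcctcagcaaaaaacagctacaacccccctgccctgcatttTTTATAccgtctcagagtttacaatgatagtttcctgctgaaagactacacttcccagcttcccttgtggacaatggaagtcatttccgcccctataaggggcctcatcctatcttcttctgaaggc
Tfpi window 2: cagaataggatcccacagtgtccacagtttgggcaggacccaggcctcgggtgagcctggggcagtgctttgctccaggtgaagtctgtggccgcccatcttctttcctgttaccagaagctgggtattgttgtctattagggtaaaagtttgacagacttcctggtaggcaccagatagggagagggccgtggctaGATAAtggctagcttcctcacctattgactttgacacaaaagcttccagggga
Pth1r window 2: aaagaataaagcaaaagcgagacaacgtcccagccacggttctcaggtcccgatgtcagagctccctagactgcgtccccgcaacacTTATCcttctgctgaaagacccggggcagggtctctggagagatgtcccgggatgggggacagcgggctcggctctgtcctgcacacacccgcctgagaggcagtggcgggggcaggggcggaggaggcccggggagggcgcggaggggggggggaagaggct
The first Srgn window (chr10:62527446-62527695) and the first Tfpi window (chr2:84476760-84477009) each held 1 TATAAA, which in the Tfpi window lies on the reverse strand. The second Tfpi window (chr2:84474175-84474424) and the second Pth1r window (chr9:110743687-110743936) each held 1 GATAA, which in the Pth1r window lies on the reverse strand. Of 32851 RefSeq windows of the same length, 22.6% held GATAA and 12.4% held TATAAA. Neither TGACGTCA nor TGANTCA, found in 1.5% and 6.7% of all windows, occurred in the 7. The matches overlap no other motif searched, and they describe letters in a window, not binding.

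Library totals ran from 6854433 to 22280769 counts over the 46 libraries. The labelled cell states were checked against their markers in CPM, a gene's count relative to its library's total, scaled to a common library size with edgeR's TMM factors within each table. The summed CPM of 7 primitive endoderm markers (Gata6, Gata4, Sox17, Sox7, Pdgfra, Dab2, Foxa2) was 4991.3 to 4999.9 in PrE-E and 13.6 to 15.7 in EPI-E. It was 4731.3 to 5528.9 in VE and 241.9 to 365.9 in EPI, so the EPI libraries were not free of these transcripts. The summed CPM of 6 pluripotency markers had a median of 205.5 in PrE-E and 1200.8 in EPI-E, and of 78.6 in VE and 1398.5 in EPI. Unsorted PrEdiff cultures at 0 h kept 842.4 CPM of the pluripotency markers against 2751.8 CPM in EPS at 0 h, and their primitive endoderm sum was 714.0 CPM against 24.0 CPM in EPS. In these bulk libraries fewer cells of a type and less RNA per cell cannot be told apart.

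**Figure D1:**
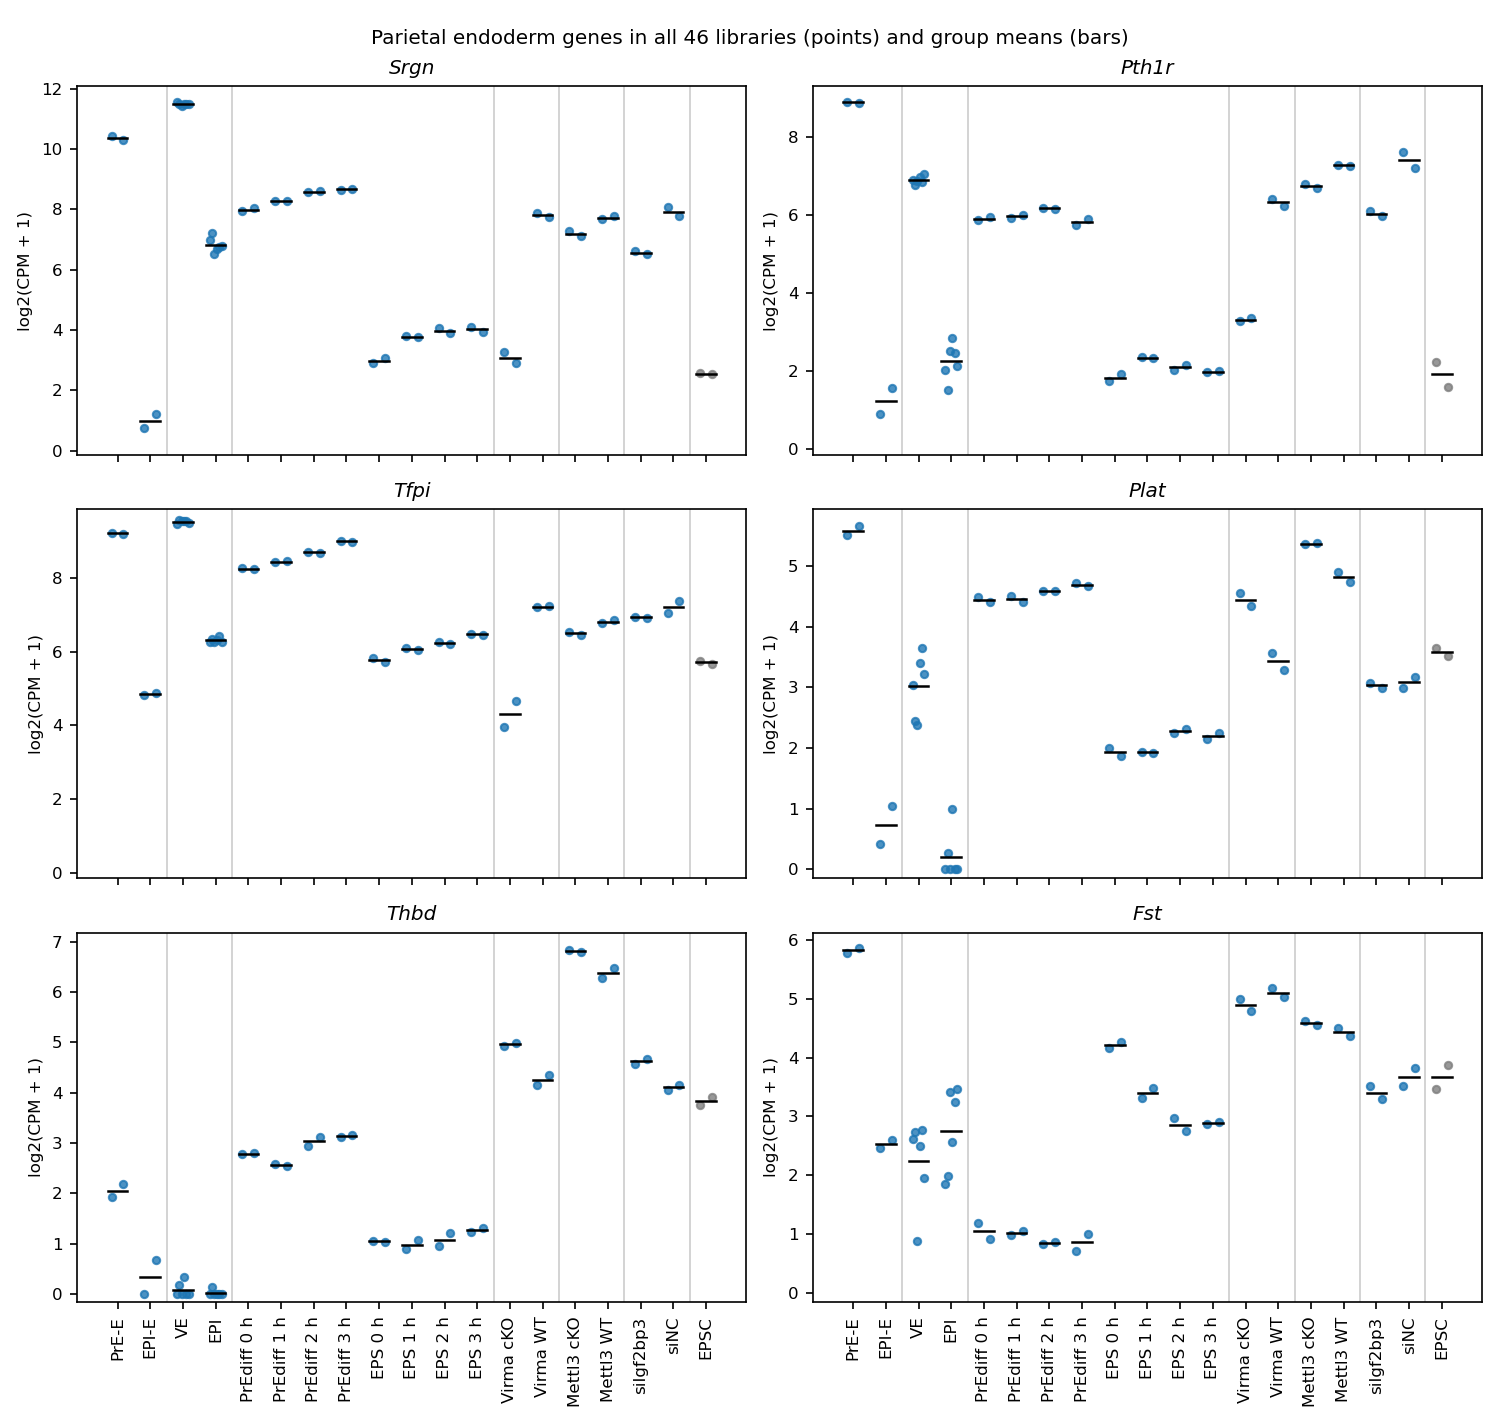
Levels of the 6 genes as log2(CPM + 1) in each of the 46 libraries (points) with group means (bars), by group, with vertical lines between count tables. Srgn and Tfpi stand highest in VE and PrE-E, Pth1r and Plat are highest in PrE-E, and Thbd is highest in the Mettl3 table and near 0 in VE and EPI.

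PrE-E carried all 6 genes above EPI-E, with the largest differences for Srgn, Pth1r and Plat. Srgn stood at 1398.2 and 1254.8 CPM in PrE-E libraries, against 0.663 and 1.29 CPM in EPI-E libraries. Pth1r stood at 480.9 and 472.9 CPM in PrE-E, against 0.861 and 1.98 CPM in EPI-E. Both genes were thus abundant in the CD140+ fraction and close to absent in the CD140- fraction. The fitted differences were 1207.8-fold for Srgn (log2 10.24 ± 0.13 SE, adjusted p = 1.21e-14 by edgeR's quasi-likelihood test with Benjamini-Hochberg adjustment over all genes tested) and 312.7-fold for Pth1r (8.29 ± 0.17, adjusted p = 5.6e-13). Of the 12423 genes tested, 57.7% were called in either direction and 28.3% rose, so a call is common in this comparison. Of the called genes 48.9% were higher in PrE-E, and 61.4% under scaling to ribosomal protein genes.

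Plat had 44.8 and 49.4 CPM in PrE-E, against 0.331 and 1.07 CPM in EPI-E, and rose 57.7-fold (log2 5.85 ± 0.35, adjusted p = 1.66e-08). Without the second EPI-E library the log2 differences of Plat, Pth1r and Thbd were 6.66, 8.90 and 4.58. The anticoagulant gene Tfpi was not absent from either fraction, with 592.6 and 589.8 CPM in PrE-E against 27.5 and 28.4 CPM in EPI-E, and rose 21.1-fold (log2 4.40 ± 0.08, adjusted p = 2.05e-13). Fst had 53.7 and 57.3 CPM in PrE-E, against 4.51 and 5.02 CPM in EPI-E, and rose 11.4-fold (log2 3.51 ± 0.21, adjusted p = 1.75e-08). Thbd was the scarcest of the 6, with 2.78 and 3.54 CPM (36 and 55 reads) in PrE-E against 0 and 0.609 CPM (0 and 8 reads) in EPI-E. It rose 7.53-fold (log2 2.91 ± 1.11, adjusted p = 0.0396), and the call was lost without the second PrE-E library (log2 2.69, adjusted p = 0.105) and without the first EPI-E library (log2 2.14, adjusted p = 0.161). Fibroblast markers moved with the fractions too, with a summed CPM over 12 genes of 394.8 to 406.3 in PrE-E and 197.9 to 207.1 in EPI-E, and their part in the Thbd and Plat differences was not tested.

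Other genes of the pathways of these members were counted in the same comparison. Of 17 tested haemostasis partners 9 rose and 1 fell (median log2 1.47, against -0.03 over all genes), among them the urokinase receptor gene Plaur (4.40), the thrombin receptor gene F2r (3.54) and Pros1 (5.18), which encodes the protein C cofactor protein S. Of 14 genes of parathyroid hormone receptor signalling 8 rose and 3 fell (median 0.78), including the G protein gene Gnas (1.98) and the adenylyl cyclase gene Adcy6 (3.39). The activin pathway, which follistatin blocks, was mixed, with 5 of 14 rising and 6 falling (median -0.34), among them the type II receptor gene Acvr2b (-2.63). Of 16 genes of proteoglycan chain synthesis 9 rose and 3 fell (median 1.02), including the xylose kinase gene Fam20b (1.97) and the heparan sulfate polymerase gene Ext2 (2.10).

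Embryoid VE carried Srgn, Pth1r, Plat and Tfpi above EPI, while Fst did not pass the test and Thbd was at the limit of detection. Srgn ranged from 2787.7 to 3008.1 CPM over the 6 VE libraries (median 2896.9) and from 90.9 to 148.3 CPM over the 6 EPI libraries (median 107.9). Tfpi ranged from 701.0 to 765.0 CPM in VE (median 743.1) and from 75.2 to 85.1 CPM in EPI (median 77.3). Pth1r ranged from 107.9 to 131.1 CPM in VE (median 118.0) and from 1.84 to 6.23 CPM in EPI (median 3.97). No VE library overlapped an EPI library in any of the 3 genes, and the share of all genes without overlap was not counted. Srgn rose 25.4-fold (log2 4.67 ± 0.09, adjusted p = 1.51e-19), Pth1r 28.4-fold (4.83 ± 0.18, adjusted p = 1.16e-15) and Tfpi 9.35-fold (3.22 ± 0.05, adjusted p = 3.41e-22, all by edgeR's quasi-likelihood test). Of 11254 genes tested 72.5% were called, with 34.5% rising and 38.0% falling, and of the called genes 47.6% were higher in VE, or 60.6% under ribosomal scaling.

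Plat was low in VE, between 4.22 and 11.6 CPM (median 7.78), and lower in EPI, where 4 of 6 libraries had none and the highest had 0.984 CPM. It rose 19.1-fold (log2 4.26 ± 0.67, adjusted p = 8.65e-06), and 4.92 on the log2 scale without EPI replicate 4. Fst had 0.844 to 5.78 CPM in VE (median 4.91) and 2.62 to 10.0 CPM in EPI (median 6.72), with overlapping groups and a log2 difference of -0.60 ± 0.44 (adjusted p = 0.228). Thbd had at most 2 reads in any VE library and at most 1 read in any EPI library, under the limit of 3 reads that a count of 0 allows, so no fold is given. Fibroblast markers were near 0 here, with summed CPM of 3.86 to 7.17 in VE and 3.01 to 13.7 in EPI and 6 to 11 of the 12 genes at 0. Among the pathway lists, 10 of 13 haemostasis partners rose and 2 fell (median log2 1.95, against -0.05 over all genes), including the annexin pair S100a10 (1.95) and Anxa2 (1.08), which bind plasminogen and Plat protein at the cell surface. The receptor partner gene Ramp2 rose by 2.08 within 6 of 13 parathyroid hormone pathway genes that rose and 1 that fell.

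VE and PrE-E were then set against their own partner fractions, and the test asked whether the VE-EPI difference departed from the PrE-E-EPI-E difference. It was smaller for Srgn (log2 -5.36 ± 0.26, adjusted p = 1.81e-11), Fst (-3.93 ± 0.77, adjusted p = 0.000617), Pth1r (-3.25 ± 0.36, adjusted p = 7.7e-07) and Tfpi (-1.0 ± 0.09, adjusted p = 4.11e-08, all by edgeR's quasi-likelihood test). These are 4 of the 6, against a background in which 9.32% of genes were lower and 20.6% were called. Without the second EPI-E library the value for Pth1r was -3.84. Thbd and Plat were not called (adjusted p = 0.828 and 0.821). For Srgn and Tfpi the smaller difference came with a higher level in VE than in PrE-E and a still higher level in EPI than in EPI-E: Srgn in EPI had a median of 107.9 CPM where EPI-E had 0.663 and 1.29 CPM. The primitive endoderm marker sum was likewise 241.9 to 365.9 in EPI and 13.6 to 15.7 in EPI-E, and its part in the differences was not tested. For Pth1r and Fst the level in VE was itself below that in PrE-E, but fraction and table coincide, so levels across the tables were not tested.

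Lists of other parietal genes and of visceral genes were set beside the 6 to describe the character of the 2 endoderm samples, without a test across tables. The summed CPM of 14 other parietal and basement membrane genes had a median of 6406.8 in VE and 51349.2 in PrE-E, while the sum of 17 visceral genes was similar, at 10257.0 to 10606.0 in VE and 11397.3 to 11720.2 in PrE-E. Single genes of these lists, picked after their levels were seen, differed in direction. The serum carriers Afp, Ttr and Apoa1 averaged 104.1 ± 11.4, 713.7 ± 46.9 and 1081.7 ± 58.5 CPM in VE (SD, n = 6), against 0, 6.08 ± 0.126 and 1.80 ± 0.367 CPM in PrE-E (SD, n = 2). The uptake receptors Cubn and Lrp2 averaged 2376.6 ± 48.4 and 3727.2 ± 76.6 CPM in VE, against 5369.3 ± 39.7 and 5855.7 ± 148.6 CPM in PrE-E. The laminin gene Lama1 averaged 314.7 ± 27.2 CPM in VE and 12017.4 ± 61.0 CPM in PrE-E. Against EPI-E, the carrier genes Ttr (log2 3.10, adjusted p = 0.00357 by edgeR) and Apoa1 (2.75, adjusted p = 0.0494) also rose in PrE-E. The carrier gene Trf fell there (-4, adjusted p = 7.12e-05 by edgeR) and in VE against EPI (-2.08, adjusted p = 2.33e-07). Apoa2 was not called in PrE-E against EPI-E (-2.24). Of 15 visceral genes tested in PrE-E against EPI-E, 12 rose and 2 fell. Of the 14 other parietal genes 13 rose there and 1, Vim, fell (log2 -1.24, adjusted p = 5.53e-06 by edgeR). In VE against EPI 12 of the 14 rose and Vim fell (-1.81, adjusted p = 4.57e-07 by edgeR). In the test of the 2 differences, 9 of 14 other parietal genes fell and 1 rose (median log2 -1.81), while 6 of 17 visceral genes rose and 2 fell (median 2.02). Relative to the visceral sum, the 6 genes together came to a median of 0.364 in VE and 0.216 in PrE-E, and Srgn was the most abundant of them in both. The same ratio was 0.649 in EPI, 0.0664 in EPI-E, 0.804 in PrEdiff at 0 h and 0.136 in Mettl3 WT. A higher ratio therefore does not mark endoderm, or a more parietal sample.

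Levels per transcript length show which of the 6 dominate. Per kilobase of merged exons in GENCODE M21, Srgn reached 1652.9 CPM in VE and 756.7 in PrE-E, Tfpi 139.1 in VE and 111.8 in PrE-E, and Pth1r 42.5 in VE and 169.9 in PrE-E. On the same per-kilobase scale, Plat reached 3.00 in VE and 18.7 in PrE-E, Fst 1.47 in VE and 19.6 in PrE-E, and Thbd 0.018 in VE and 0.849 in PrE-E. Srgn led in both, the second place was held by Tfpi in VE and by Pth1r in PrE-E, and Thbd was last in both. The peptide ligand gene Pthlh was at or near 0 in all of these groups, with means of at most 0.0644 CPM, while Ramp2 averaged 103.4 ± 5.26 CPM in VE and 23.2 ± 6.47 CPM in PrE-E. F3, the tissue factor gene that Tfpi protein opposes, averaged 24.5 ± 3.87 CPM in VE and 78.6 ± 12.4 CPM in PrE-E.

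Unsorted PrEdiff cultures before actinomycin D had a smaller version of the PrE-E pattern, with Fst turned the other way. Srgn had 246.2 and 262.7 CPM in PrEdiff at 0 h, against 6.45 and 7.32 CPM in EPS at 0 h. Tfpi had 306.2 and 300.9 CPM in PrEdiff, against 55.8 and 52.1 CPM in EPS. Pth1r had 57.8 and 60.5 CPM in PrEdiff, against 2.37 and 2.79 CPM in EPS. All 3 were higher in the induced libraries, by 36.4-fold for Srgn (log2 5.18 ± 0.05, adjusted p = 1.77e-247), 22.0-fold for Pth1r (4.46 ± 0.09, adjusted p = 4.58e-154) and 5.62-fold for Tfpi (2.49 ± 0.03, adjusted p = 2.17e-218, by edgeR's quasi-likelihood test). The p-values of the actinomycin D table rest on replicates that differed by little more than counting error. Here 5 of the 6 genes rose and 1 fell, against a background of 37.6% rising, 42.9% falling and 80.5% called of 14127 genes, with 46.7% of calls higher in PrEdiff, or 57.7% when scaled to library totals.

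Plat had 21.5 and 20.2 CPM in PrEdiff, against 2.99 and 2.65 CPM in EPS, and rose 7.15-fold (log2 2.84 ± 0.11, adjusted p = 4.85e-77). Thbd had 5.87 and 5.96 CPM in PrEdiff, against 1.09 and 1.05 CPM in EPS, and rose 5.10-fold (log2 2.35 ± 0.19, adjusted p = 6.39e-28). Both stayed under the levels of Tfpi and Srgn, while fibroblast markers ran the other way, with summed CPM of 137.4 to 141.1 in PrEdiff and 216.3 to 220.1 in EPS. Fst had 1.28 and 0.888 CPM in PrEdiff, against 16.9 and 18.2 CPM in EPS, and fell 14.8-fold (log2 -3.89 ± 0.15, adjusted p = 6.76e-81). The control PrE-induced cultures of other tables did not share this low level. Fst averaged 33.5 CPM in Virma WT, 20.7 in Mettl3 WT and 11.8 in siNC, and 11.9 in untreated EPSC, without a test across tables. In PrEdiff against EPS the activin subunit gene Inhbb (log2 -3.43) and the inhibitory Smad gene Smad7 (-1.44) also fell, in a list of 16 activin pathway genes of which 9 rose and 6 fell. Of 14 parathyroid hormone pathway genes 11 rose and 2 fell, with Ramp2 (3.34) at the lowest p, and of 14 other parietal genes 12 rose and 2 fell, with Lama1 (4.95) at the lowest p.

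**Figure D2:**
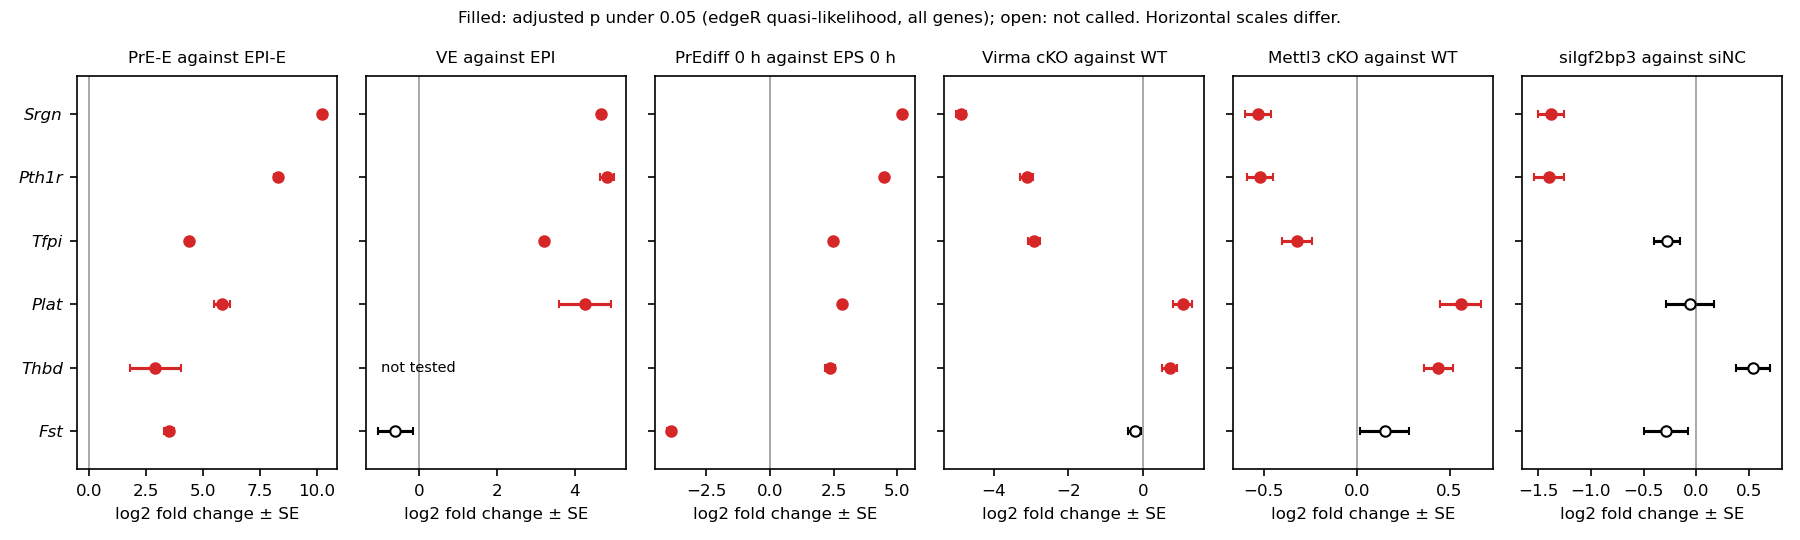
Fitted log2 differences with their standard errors for the 6 genes (rows) in 6 comparisons (panels, each with its own horizontal scale), filled where the adjusted p was under 0.05. All 6 genes lie right of 0 in PrE-E against EPI-E, Fst lies left of 0 in PrEdiff against EPS, and Srgn, Pth1r and Tfpi lie left of 0 in Virma cKO and Mettl3 cKO while Plat and Thbd lie right of it.

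Virma encodes a scaffold of the complex that writes N6-methyladenosine on mRNA, and its own transcript averaged 61.1 ± 9.25 CPM in Virma cKO and 108.2 ± 2.19 CPM in WT cultures (SD, n = 2 each; log2 -0.82 ± 0.12, adjusted p = 1.12e-06 by edgeR's quasi-likelihood test). The 6 genes split in these cells. Srgn had 8.54 and 6.40 CPM in Virma cKO, against 237.1 and 214.2 CPM in WT. Pth1r had 8.71 and 9.27 CPM in Virma cKO, against 84.6 and 74.7 CPM in WT, and Tfpi had 14.4 and 24.3 CPM in Virma cKO, against 146.2 and 149.3 CPM in WT. These 3 genes fell in Virma cKO, by 29.5-fold for Srgn (log2 -4.88 ± 0.13, adjusted p = 4.39e-25), 8.71-fold for Pth1r (-3.12 ± 0.17, adjusted p = 4.08e-16) and 7.57-fold for Tfpi (-2.92 ± 0.15, adjusted p = 4.75e-17).

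Plat ran the other way, with 22.5 and 19.2 CPM in Virma cKO against 10.9 and 8.80 CPM in WT (log2 1.07 ± 0.26, adjusted p = 0.00149), as did Thbd, with 29.4 and 30.9 CPM in Virma cKO against 16.8 and 19.5 CPM in WT (0.72 ± 0.20, adjusted p = 0.00557). Fst had 30.7 and 26.6 CPM in Virma cKO and 35.2 and 31.7 CPM in WT and was not called (log2 -0.22 ± 0.18, adjusted p = 0.378). Of the 6 genes 2 rose and 3 fell, where 15.1% of 13113 genes rose and 18% fell (33.2% called). Of the called genes 45.6% were higher in Virma cKO, but 86.6% under ribosomal scaling and 66.8% under scaling to library totals, and no call among the 5 genes reversed under either scaling. The primitive endoderm marker sum was 134.5 to 156.6 in Virma cKO and 1380.2 to 1424.4 in WT, while the fibroblast marker sum was 2528.0 to 2544.5 in Virma cKO and 1022.6 to 1029.0 in WT, with 11 of 12 fibroblast genes rising. The part of either in the 6 genes was not tested. Of 14 other parietal genes 7 fell and 2 rose, with the lowest p for Lama1 (log2 -4.30) and with Krt18 (1.47) and Krt8 (0.71) rising. Of 10 visceral genes 4 fell and 1 rose, including Cubn (-4.75). The receptor partner Ramp2 fell as Pth1r did (-2.11, adjusted p = 1.52e-05), and of 15 haemostasis partners 6 rose and 3 fell, with the platelet adhesion gene Thbs1 (1.06) and the protease inhibitor gene Serpine2 (1.10) higher and F2r (-1.16) lower.

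Mettl3 encodes the catalytic subunit of the same complex. Its transcript did not differ by label, at 36.0 ± 1.57 CPM in Mettl3 cKO and 36.3 ± 1.55 CPM in WT (SD, n = 2 each; log2 -0.02, adjusted p = 0.978), and whether the deletion removes a counted exon is not given in the sources used here, so directions below refer to the libraries labelled Mettl3 cKO. Srgn, Pth1r and Tfpi fell, Thbd and Plat rose, and Fst was not called. Srgn had 155.2 and 136.8 CPM in libraries labelled Mettl3 cKO, against 203.9 and 219.5 CPM in WT, and Pth1r had 111.3 and 103.3 CPM under the cKO label against 156.5 and 152.1 CPM in WT. Both genes fell, Srgn by 1.45-fold (log2 -0.53 ± 0.07, adjusted p = 2.77e-05) and Pth1r by 1.44-fold (-0.52 ± 0.07, adjusted p = 3.69e-05, by edgeR's quasi-likelihood test). Tfpi had 91.4 and 86.9 CPM under the cKO label against 108.5 and 115.3 CPM in WT (-0.32 ± 0.08, adjusted p = 0.0132), a call that was lost without the second WT library (adjusted p = 0.111) or the second library labelled Mettl3 cKO (adjusted p = 0.0936).

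Thbd was at its highest here, with 113.2 and 110.6 CPM in libraries labelled Mettl3 cKO and 76.8 and 87.9 CPM in WT, and rose 1.36-fold (log2 0.44 ± 0.08, adjusted p = 0.00106). Plat had 40.2 and 40.5 CPM under the cKO label against 28.8 and 25.8 CPM in WT and rose 1.47-fold (0.56 ± 0.11, adjusted p = 0.00275), while Fst was not called (0.15 ± 0.13, adjusted p = 0.701). The 2 that rose and 3 that fell stand against 2.51% of genes that rose and 1.44% that fell (3.95% called of 13115). Of those calls 63.5% were higher, and 49.5% under ribosomal scaling. Fibroblast markers were again higher, with summed CPM of 3446.9 to 3614.4 in libraries labelled Mettl3 cKO and 2410.1 to 2542.7 in WT and with 10 of 12 genes rising, and primitive endoderm markers were lower, at 1181.5 to 1192.0 under the cKO label against 1575.9 to 1619.6 in WT. Their part in the changes was not tested. Ramp2 fell again (log2 -0.76, adjusted p = 0.0213), and of 17 haemostasis partners 3 rose and 1 fell, Thbs1 (0.57), Serpine2 (0.48) and Anxa2 (0.48) being higher and S100a10 (-0.35) lower.

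Igf2bp3 encodes a reader of N6-methyladenosine, and its transcript was not lower with siIgf2bp3, at 113.7 ± 4.10 CPM, than with siNC, at 105.7 ± 10.3 CPM (SD, n = 2 each; log2 0.11, adjusted p = 0.577), so directions refer to the libraries labelled siIgf2bp3. Srgn had 96.7 and 90.3 CPM in those libraries, against 270.2 and 218.3 CPM in siNC, and fell 2.61-fold (log2 -1.38 ± 0.12, adjusted p = 0.000211). Pth1r had 67.9 and 61.8 CPM with siIgf2bp3 against 195.3 and 147.4 CPM in siNC, and fell 2.64-fold (-1.40 ± 0.14, adjusted p = 0.000417). These 2 genes fell, against a background of 4.52% falling and 7.32% called of 12918 genes, and no member rose. Tfpi had 122.1 and 120.3 CPM with siIgf2bp3 against 130.7 and 164.2 CPM in siNC (-0.28 ± 0.12, adjusted p = 0.166). Plat had 7.46 and 6.92 CPM with siIgf2bp3 against 6.98 and 8.00 CPM with siNC (-0.06 ± 0.23, adjusted p = 0.901). None of these passed the test, nor did Fst, with 10.4 and 8.76 CPM with siIgf2bp3 against 10.5 and 13.1 CPM with siNC (-0.29 ± 0.21, adjusted p = 0.411). Thbd had 22.6 and 24.6 CPM in libraries labelled siIgf2bp3 and 15.7 and 16.7 CPM in siNC, and was not called (0.54 ± 0.16, adjusted p = 0.0607).

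The calls for Srgn and Pth1r held in each alternative run (0 of 22 values lost a call), while other calls varied with the libraries left out. Without the first siNC library 4 of the 6 genes were called, with Thbd at 0.47 (adjusted p = 0.0428) and Tfpi at -0.46 (adjusted p = 2.95e-08), and without the second Thbd was called at 0.59 (adjusted p = 0.00426). The genes called over the whole table numbered 2424 and 4936 without the first and second siNC library, 242 and 315 without the first and second siIgf2bp3 library, and 945 with all 4. With the replicate number as a block Thbd was also called (0.54, adjusted p = 0.0454). The change in this comparison ran with the GC content of the genes (Spearman -0.46 across 12611 genes, which are not independent replicates), and the median change among genes of like GC content was -0.30 for Pth1r and 0.15 for Srgn. The part of GC content in the falls was not tested. The primitive endoderm marker sum was 539.0 to 546.8 with siIgf2bp3 and 1082.7 to 1106.7 with siNC, and 10 of 14 other parietal genes fell with none rising, with Lamb1 (log2 -1.44) at the lowest p. F2r (-1.12) and Plaur (-0.87) were the 2 haemostasis partners that fell, and Ramp2 (-1.46, adjusted p = 0.00134) and Gnas (-0.68) the 2 of the parathyroid hormone pathway. Fibroblast marker sums overlapped, at 726.9 to 730.7 with siIgf2bp3 and 634.3 to 829.2 with siNC.

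The 3 perturbations were compared by testing the difference between their responses, each taken within its own table. The Virma response was more negative than the Mettl3 response for Srgn (log2 -4.32 ± 0.16, adjusted p = 4.77e-13), Pth1r (-2.57 ± 0.16, adjusted p = 1.14e-09) and Tfpi (-2.56 ± 0.20, adjusted p = 3.17e-08, by edgeR's quasi-likelihood test). Thbd, Plat and Fst did not differ past the threshold, at 0.31, 0.55 and -0.34. These 3 genes fell where 10.9% of all genes did and 8.74% rose (19.7% called). Against the siIgf2bp3 response, the Virma response was more negative for Srgn (-3.51 ± 0.19, adjusted p = 1.37e-09), Tfpi (-2.64 ± 0.23, adjusted p = 4.88e-07) and Pth1r (-1.73 ± 0.21, adjusted p = 1.92e-05). Plat was more positive (1.12 ± 0.37, adjusted p = 0.0364, in a comparison where 9.29% of genes rose, 14% fell and 23.3% were called), a call lost when any of 6 of the 8 libraries was left out, with adjusted p from 0.0588 to 0.157.

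The Mettl3 response was less negative than the siIgf2bp3 response for Pth1r (log2 0.86 ± 0.16, adjusted p = 0.00613) and Srgn (0.83 ± 0.14, adjusted p = 0.0034), 2 of 6 genes where 1.68% of all genes rose and 2.77% were called. Without the second siIgf2bp3 library neither was called (adjusted p = 0.0804 for Pth1r and 0.06 for Srgn), and without the second Mettl3 WT library Pth1r was not (adjusted p = 0.0632). Of the 6 genes, Srgn and Pth1r were called lower in all 3 perturbations, and the share of all genes called so was not counted. A fall in all 3 was not particular to them, as Gata4, Lama1 and Cubn were also called lower in each, while others of their lists were not. Plat and Thbd rose by Virma genotype and Mettl3 label, and Fst was called in none of the 3.

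Actinomycin D stops new transcription, so a transcript's share of the remaining reads rises when it is lost more slowly than the average transcript and falls when it is lost faster. In PrEdiff cells Srgn stood at 246.2 and 262.7 CPM at 0 h, 310.3 and 311.4 CPM at 1 h, 378.0 and 386.9 CPM at 2 h, and 400.1 and 410.0 CPM at 3 h. Tfpi reached 114.3%, 136.3% and 167.3% of its 0 h mean at 1, 2 and 3 h, and Srgn 122.2%, 150.3% and 159.1%. Both climbed at every time, and the slopes were 0.25 ± 0.02 log2 per hour for Tfpi (adjusted p = 2.74e-06) and 0.23 ± 0.06 for Srgn (adjusted p = 0.00539, by edgeR's quasi-likelihood test). Thbd dipped to 82.8% at 1 h and stood at 132.8% at 3 h, with a slope of 0.17 ± 0.06 (adjusted p = 0.0309) that was not called without either 3 h library (adjusted p = 0.0783 and 0.0939). Plat (0.09 ± 0.04, adjusted p = 0.0625) and Fst (-0.14 ± 0.10, adjusted p = 0.274) were not called, nor was Pth1r, whose slope was 0.00 and whose share was 94.5% at 3 h. Plat was called without the second EPS 2 h library (adjusted p = 0.0423), without the EPS 3 h libraries (0.0145), for 3 h against 0 h alone (0.000889) and by DESeq2 (0.0345). The 3 slopes that rose compare with 20.3% of genes rising (36.9% called), and under scaling to ribosomal protein genes the slopes of Thbd, Tfpi and Srgn turned to -0.20, -0.13 and -0.15. Scaled to library totals, Thbd (0.03, adjusted p = 0.739) and Srgn (0.09, adjusted p = 0.125) were not called and Pth1r was called lower (-0.15, adjusted p = 0.041).

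In EPS cells Srgn, Tfpi and Plat rose and Fst fell. Srgn stood at 6.45 and 7.32 CPM at 0 h, 13.0 and 12.5 CPM at 1 h, 15.6 and 14 CPM at 2 h, and 16.2 and 14.3 CPM at 3 h. Its slope was 0.35 ± 0.06 log2 per hour (adjusted p = 0.000442), that of Tfpi 0.23 ± 0.02 (adjusted p = 3.25e-06), and that of Plat 0.15 ± 0.04 (adjusted p = 0.0285). Plat was not called without the second EPS 0 h library (adjusted p = 0.11) or the second EPS 3 h library (adjusted p = 0.0625), nor with DESeq2 (adjusted p = 0.0576), library totals (adjusted p = 0.635) or 3 h against 0 h alone (adjusted p = 0.0651). Under ribosomal scaling it turned to -0.09 while Tfpi (0.00) and Srgn (0.14) were not called. Fst had 16.9 and 18.2 CPM at 0 h, 8.96 and 10.2 CPM at 1 h, 6.81 and 5.74 CPM at 2 h, and 6.30 and 6.49 CPM at 3 h. It was the one member whose share fell (-0.50 ± 0.07 log2 per hour, adjusted p = 3.2e-05), to 54.7% at 1 h and 36.4% at 3 h of its starting level, with most of the loss in the first hour. In EPS 18.2% of genes rose and 18.5% fell (36.7% called). Thbd and Pth1r were not called (adjusted p = 0.219 and 0.866). Of 16 activin pathway genes 9 fell and 3 rose in EPS, and 9 fell and 3 rose in PrEdiff, where Fst was not called.

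No member's straight-line slope was called different between the 2 states by the test of the difference, where 1.27% of all genes were called and 1.13% rose. The count was 0 with edgeR's adjusted p, 1 at an unadjusted p under 0.05 (Fst, 0.35 ± 0.13, unadjusted p = 0.0192) and 0 with DESeq2. Ribosomal protein genes took 9.18%, 15.1%, 17.7% and 11.6% of reads at 0, 1, 2 and 3 h in EPS, and their part in this count was not tested. Without the EPS 3 h libraries Srgn (-0.30, adjusted p = 0.0151) and Fst (0.60, adjusted p = 0.00371) were called, and without the 3 h libraries of both states Srgn was (-0.31, adjusted p = 0.0262). Over all genes the same steps gave 4140 and 926 calls in place of 180. Each slope is a straight line over 0 to 3 h, so a curved course adds to the spread that its p-value measures. For 3 h against 0 h alone, edgeR's quasi-likelihood test called Srgn (-0.15 log2 per hour, adjusted p = 2.56e-05) and Fst (0.36, adjusted p = 0.0202). The 0 calls therefore do not show that the 2 states lose these transcripts alike.

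**Figure D3:**
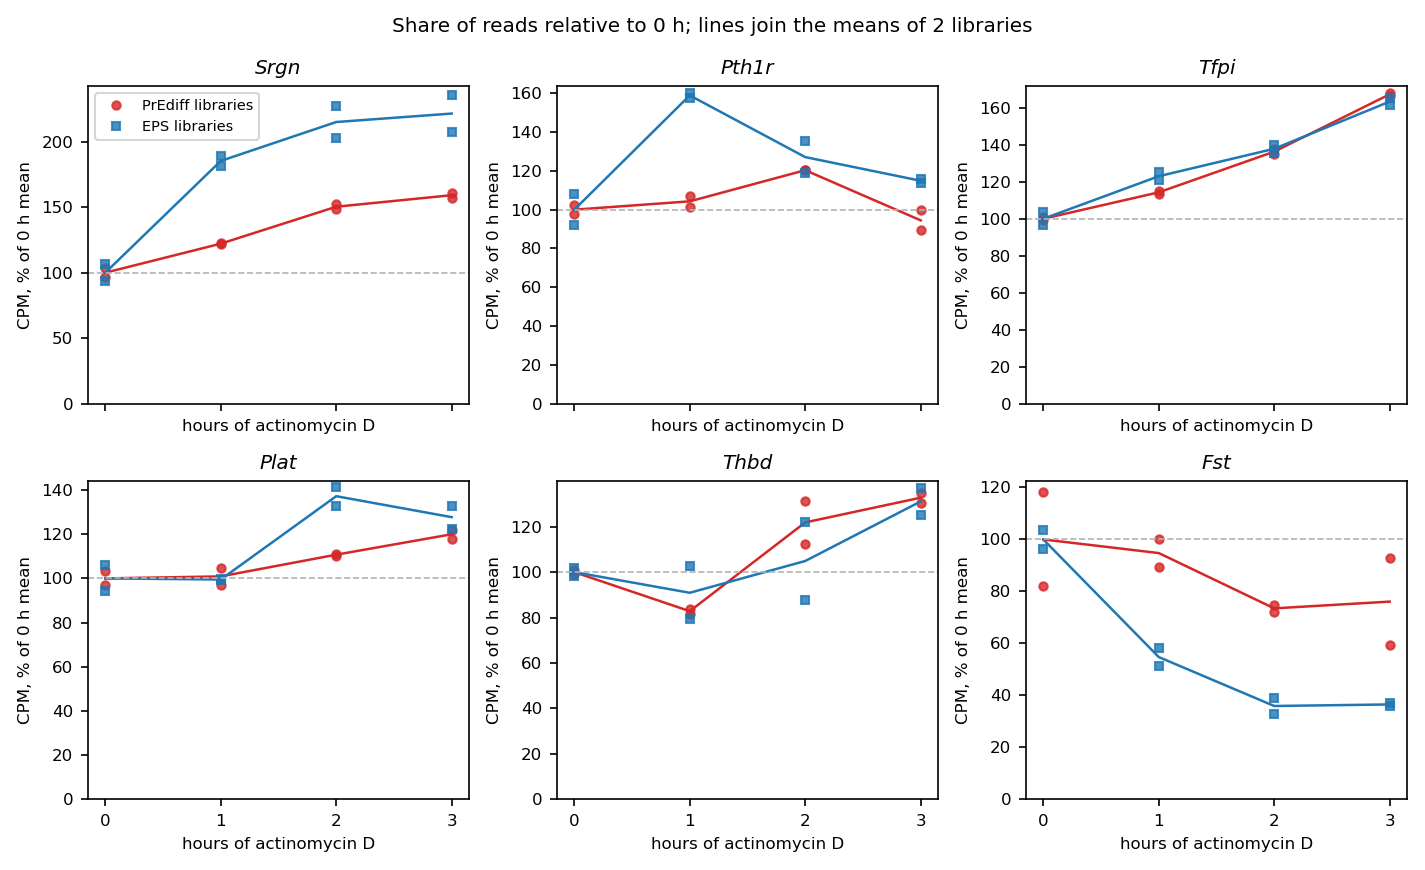
CPM of each gene as a percent of its own 0 h mean in PrEdiff (circles) and EPS (squares) libraries over 0 to 3 h of actinomycin D, with lines through the means of 2 libraries. Tfpi climbs alike in both states to 167.3% and 163.3% at 3 h, and Fst drops to 36.4% in EPS. In PrEdiff the slope of Fst was not called. Its 3 h libraries there, with 11 and 15 reads, stand at 59.3% and 92.8% (mean 76.0%).

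Across the 19 groups the levels of the 6 genes follow different orders, set side by side without a test because group and table coincide. Srgn and Tfpi were highest in VE, followed by PrE-E and then by PrEdiff at 3, 2, 1 and 0 h. Srgn was lowest in EPI-E and Tfpi in Virma cKO. Pth1r was highest in PrE-E, followed by siNC and Mettl3 WT, which overlapped, and by VE and Mettl3 cKO, which also overlapped. Plat was highest in PrE-E and then in the Mettl3 cKO and WT groups. Thbd was highest in Mettl3 cKO and WT, then in Virma cKO and siIgf2bp3, and lower in PrE-E than in all of these. Fst was highest in PrE-E and then in the Virma WT and cKO groups, and lowest in PrEdiff at 0 to 3 h. Of the 18 pairs of neighbours in each order, the library ranges overlapped in 10 for Fst, 9 each for Plat and Pth1r, 7 for Srgn, 5 for Thbd and 4 for Tfpi.

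Pearson correlations of group mean log2(CPM + 1) over these 19 groups, which share libraries and tables and carry no test, place Srgn with Tfpi (0.91) and with Pth1r (0.88). Thbd stood apart from Srgn (0.15) and Tfpi (-0.07) and was closest to Plat (0.69). Pth1r ran with the primitive endoderm marker sum (0.93), as did Srgn (0.90), while Thbd ran with the fibroblast marker sum (0.82) more than with the primitive endoderm sum (0.41). The genes most like each member among 10982 candidates were Klb (0.979), Nxf7 and Gdpd5 for Pth1r, Tmem144 (0.974), Agpat4 and Lgmn for Srgn, Snx1 (0.955), Pdia5 and Naaa for Tfpi, Slc41a2 (0.973), Pde10a and Lif for Thbd, Lgals8 (0.934), Parva and Loxl2 for Plat, and Efl1 (0.866), Hsph1 and Gpatch3 for Fst.

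**Figure D4:**
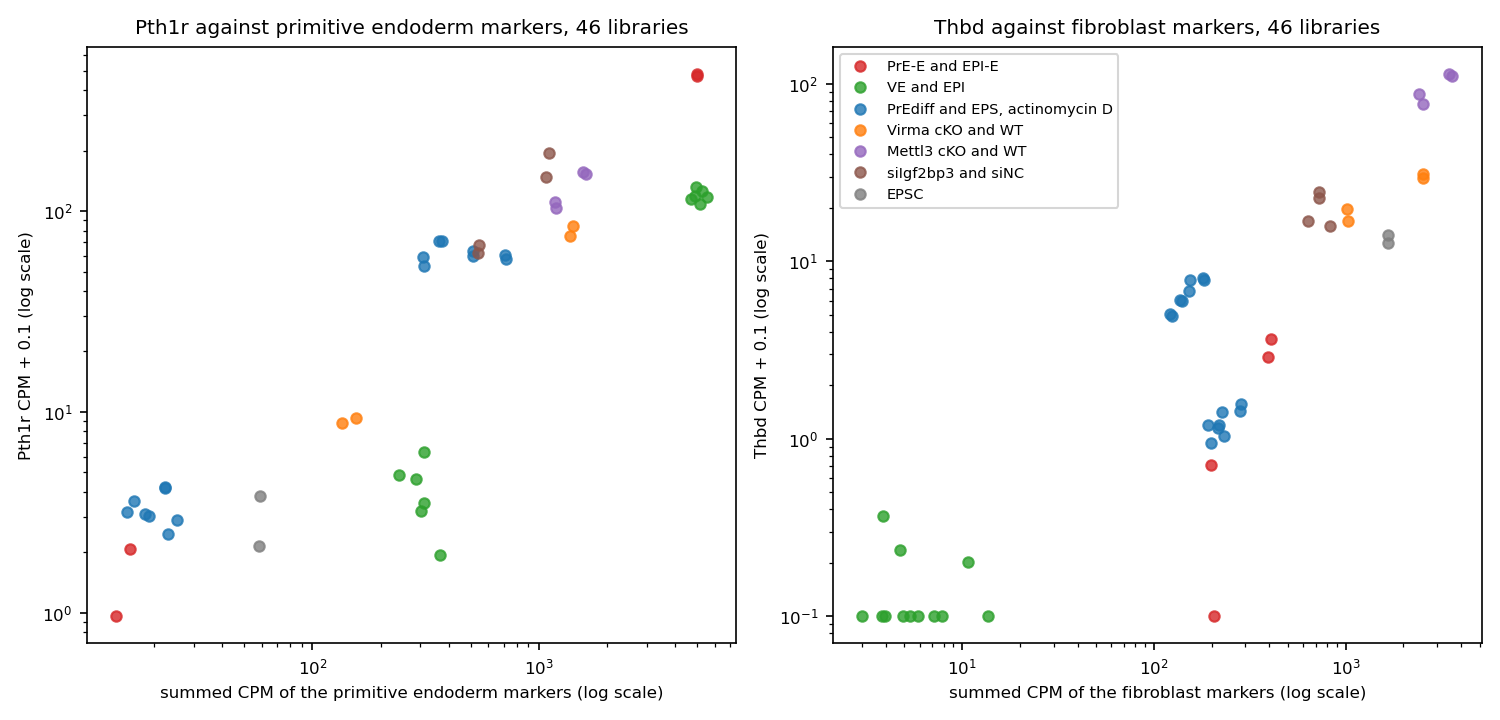
CPM + 0.1 of Pth1r against the summed CPM of 7 primitive endoderm markers (left) and of Thbd against the summed CPM of 12 fibroblast markers (right) in the 46 libraries, both axes on a log scale, coloured by count table. Pth1r is highest in PrE-E (480.9 and 472.9 CPM), where the primitive endoderm sum is 4991.3 to 4999.9 CPM, and Thbd is highest in the Mettl3 table (76.8 to 113.2 CPM), where the fibroblast sum is 2410.1 to 3614.4 CPM. Virma cKO, whose fibroblast sum lies within that range, averages 30.2 CPM of Thbd. At 0 h PrEdiff has more Thbd than EPS but a lower fibroblast sum.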

How the data were processed

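Total RNA was extracted with TRIzol, made into libraries with 2 kits and sequenced on an Illumina NovaSeq, per the labels' protocols; which kit served which library is not given in the sources used here. The authors deposited 7 tables of raw read counts per gene. The submitters' processing notes name FastQC 0.12.1, Trim Galore, STAR 2.7.11b, Subread, DESeq2 and the genome build mm39; the annotation and strand setting of the counting are not given in the sources used here. Every column of the 7 tables was tied to a sample by its name, and 19 symbols that occur more than once in the EPSC table were dropped.

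The members and gene lists were chosen with earlier results of these data known. Each table was fitted on its own in R 4.3.3 by edgeR 4.0.16 (filterByExpr with a minimum count of 10 and total of 15, TMM scaling, robust quasi-likelihood fit, prior count 2), and p-values were adjusted over all genes tested by Benjamini-Hochberg with a threshold of 0.05. Standard errors were derived from the quasi-likelihood F statistic. The actinomycin D table was fitted with a mean per state and time, and again with a slope over 0 to 3 h per state. Differences between responses were fitted over 2 tables with a mean per group. In all, 13 comparisons were tested, 4 of them between responses. The edgeR fit was tested on simulated counts with known changes. This covered PrE-E against EPI-E, VE against EPI, the PrEdiff slope and the Virma minus Mettl3 response. The other steps were not tested in this way. Genes named from a list were among the 3 with the lowest p in a comparison, with these exceptions. Krt18 and Krt8 are named as the genes of their list that rose by Virma genotype. Vim is named as the gene of the same list that fell in PrE-E and in VE. All haemostasis partners called by Mettl3 label are named. Afp, Ttr, Apoa1, Trf, Apoa2, Lama1, Pthlh, F3 and Ramp2 were chosen from the lists after their levels were seen. 1 primitive endoderm marker is not reported here and enters no sum. Likeness used group means of log2(CPM + 1) of genes with at least 5 CPM in at least 4 groups.

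The labels do not say whether replicate numbers pair the libraries. The correlation of deviations between same-numbered libraries ran from -0.13 to 0.03 over the comparisons. Counting error can hide a pairing, so this correlation does not exclude one. Alternatives were DESeq2 1.42.0, other scalings and filters, a replicate block and leaving out libraries. Limits for a count of 0 are 3 reads per library and cover counting error only.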

Additional observations from a re-analysis of the deposited data

Results flagged for a closer look

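For 4 of the 6 genes the difference between VE and EPI departed from the difference between PrE-E and EPI-E by the test of that departure (edgeR's quasi-likelihood test). The values on the log2 scale were -5.36 for Srgn, -3.93 for Fst, -3.25 for Pth1r and -1.0 for Tfpi. VE libraries held more Srgn and Tfpi than PrE-E libraries, and EPI libraries held more of both than EPI-E libraries. Primitive endoderm markers summed to 241.9 to 365.9 CPM in EPI and to 13.6 to 15.7 CPM in EPI-E, and their part in these values was not tested. Fraction and count table coincide across these groups and cannot be told apart. Among the 9 combinations of a gene with a group of 6 libraries that had enough reads, no library stood apart from the others of its group.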

How the results depend on the processing

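Of 1305 values for single genes under the alternatives, 1225 kept their direction and their side of the threshold, 27 lost a call, 19 gained one and 34 changed sign. No call in the 6 comparisons of cell states and perturbations changed sign. Leaving out 1 library at a time gave counts of called members of 5 to 6 for PrE-E, 4 to 4 for VE, 6 to 6 for PrEdiff at 0 h, 5 to 5 for Virma, 4 to 5 for Mettl3, 2 to 4 for siIgf2bp3, 2 to 4 for the PrEdiff slopes, 3 to 4 for the EPS slopes, 0 to 0 for the slope difference, 4 to 4 for VE against PrE-E differences, 3 to 3 for Virma minus Mettl3, 3 to 4 for Virma minus siIgf2bp3 and 0 to 2 for Mettl3 minus siIgf2bp3. Changes of sign in those fits, given as the value or the range over them, were Plat with siIgf2bp3 (0.04), the Pth1r slope in PrEdiff (0 to 0.05), in EPS (-0.06 to -0.02) and their difference (0.02 to 0.06), Fst in Virma minus siIgf2bp3 (-0.1 to 0.21) and Tfpi in Mettl3 minus siIgf2bp3 (-0.24 to 0.1).

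The actinomycin D slopes depend on scaling, which moved the median slope of all genes by construction, to -0.35 log2 per hour in PrEdiff and -0.17 in EPS under ribosomal scaling and to -0.12 in PrEdiff under library totals. In PrEdiff, ribosomal scaling gave -0.20 for Thbd, -0.28 for Plat (adjusted p = 0.0216), -0.13 for Tfpi and -0.15 for Srgn, with Pth1r (-0.38, adjusted p = 0.000644) and Fst (-0.49, adjusted p = 0.0318) called lower, and library totals gave -0.05 for Plat, called Pth1r lower (-0.15, adjusted p = 0.041) and did not call Srgn (0.09, adjusted p = 0.125) or Thbd (0.03, adjusted p = 0.739). The Pth1r slope there was 0 with no filter and with a 1 CPM filter and 0.09 without 3 h. In EPS, ribosomal scaling left 1 member called and gave -0.08 for Thbd, -0.19 for Pth1r and -0.09 for Plat, and library totals gave -0.09 for Pth1r. For the slope difference, library totals gave 0 for Thbd and -0.02 for Tfpi, ribosomal scaling -0.12 and -0.13, and the fit without 3 h -0.09 for Tfpi. Members called in that difference numbered 1 without 3 h, 2 without EPS 3 h and 2 for 3 h against 0 h alone. Among calls, 55% were higher in PrEdiff slopes (10% with library totals) and 49.6% in EPS slopes (10.9% with library totals and 0.5% with ribosomal scaling).

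Under ribosomal scaling Fst turned to 0.18 by Virma genotype and to 0.07 in Virma minus Mettl3, where 5 members were called, and the all-gene median moved to 0.42 for Virma, 0.23 for PrE-E and 0.26 for VE. The median over groups of the summed level of the 6 genes was 515 CPM, 484 with library totals and 448 with ribosomal scaling. The replicate block, used although the labels do not say that numbers pair libraries, called Thbd with siIgf2bp3 (0.54, adjusted p = 0.0454), did not call Plat in Virma minus siIgf2bp3 (1.12, adjusted p = 0.0533) and changed no other call. Among the 6 embryoid pairs 1 correlated best with its own number. With crossed pairing, added after the data were seen, 1421 genes were called by Mettl3 label in place of 518, and 289 with ribosomal scaling and 247 with DESeq2. For siIgf2bp3, 1699 genes were called with no filter and 1467 with the block in place of 945. All-gene calls in the slope difference were 180, against 2 with ribosomal scaling, 528 with DESeq2 and 6268 for 3 h against 0 h alone. Slope calls in PrEdiff were 5210, against 9177 with ribosomal scaling, 8381 without 3 h and 9552 for 3 h alone, and in EPS 5180, against 9442 without 3 h, 8748 without EPS 3 h and 10043 for 3 h alone. Virma minus Mettl3 gave 2726, against 4352 with ribosomal scaling, and Mettl3 minus siIgf2bp3 gave 374, against 162 with ribosomal scaling, 899 with no filter and 211 with the block. The cause of these shifts was not tested. With 2 libraries in most groups, depth limits Thbd in EPI-E, VE and EPI, where it has under 10 reads a library. Depth also limits Fst in PrEdiff at 0 to 3 h, where it has 11 to 24 reads a library.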
